A study of Mus musculus with 4 samples.

Results

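Glycolysis splits glucose into pyruvate in the cytosol. A hexokinase first traps glucose as glucose 6-phosphate, a phosphofructokinase commits it to the pathway, aldolase and triosephosphate isomerase make triose phosphates, and glyceraldehyde-3-phosphate dehydrogenase, phosphoglycerate kinase and pyruvate kinase lead to pyruvate and ATP, while lactate dehydrogenase interconverts pyruvate and lactate. In the brain, Hk1 is the broadly expressed hexokinase and Hk2 is the inducible form, found in microglia, the resident macrophages of the brain. The genes described here were 10 enzyme genes of this route (Hk1, Hk2, Pfkm, Pfkp, Aldoa, Tpi1, Gapdh, Pgk1, Pkm and Ldha), selected by name among 18386 counted features, most of them genes.

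The data were transcript counts from total RNA of the cerebral cortex of 12-month-old male mice, 2 APPswe/PS1ΔE9 transgenic mice (APP) and 2 wild-type mice (WT), both on the C57BL/6 background. The transgenic line carries a mutated APP and an exon-deleted presenilin 1, both driven by the Prnp promoter, and develops amyloid plaques. Each library is 1 animal, so p-values set a genotype difference against the spread between animals within a genotype. With 2 animals per genotype, edgeR and DESeq2 estimate that spread partly from other genes. The count table numbers the APP libraries 3 and 4 and the WT libraries 1 and 2, and these numbers are used below.

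The libraries held 28525117 and 31392983 counts (APP 3 and 4) and 43881196 and 35623228 counts (WT 1 and 2). The genotype labels fitted the transgene, since App was higher in APP (log2 fold change 1.52, adjusted p = 2.11e-05, edgeR quasi-likelihood test). The APP libraries differed more from each other than the WT libraries did, with a chi-square per degree of freedom over genes of 30.3 against 5.40. Drd2, a dopamine receptor of the striatum chosen after its values were seen, had 25 counts in APP 3 against 194 in APP 4, 129 in WT 1 and 153 in WT 2, and what such a difference between libraries adds to the enzyme values was not tested.

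Of the 10 enzyme genes, 9 had slightly lower levels in APP and none of these 9 passed the test, with log2 fold changes between -0.12 and -0.03. Hk2 alone was higher, with 1.72 times the WT level, and it also missed the test over all features (adjusted p = 0.0638). With an adjusted p below 0.05 and a change of 1.5-fold or more required, edgeR's quasi-likelihood test called 0 of the 10 genes but 162 of 18386 features (0.881%; 0.843% higher in APP), and 1 of the 10, Hk2, had an unadjusted p under 0.05, as did 12.1% of all features. Hk2 was on the called side of the threshold with other tools and another way of summing transcripts, as given with its values below. The median log2 fold change of the 10 genes was -0.08, beside -0.001 over all features.

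The genotypes separated for 8 of the 10 genes in spite of these small differences. In CPM, the counts scaled to the TMM-adjusted library size, both APP libraries lay below both WT libraries in 7 genes, which was so for 21.4% of all features, and in Hk2 both lay above, which was so for 21.3%. Aldoa and Pgk1 were the 2 genes whose genotypes overlapped. With counts scaled to plain library totals, Pfkp overlapped too (282.9 CPM in APP 3 against 279.7 in WT 1), and 6 genes remained apart with lower APP values, beside 19.8% of all features. The 9 negative log2 fold changes stayed negative under each scaling tried. The 10 genes took 0.347% and 0.326% of all counts in APP 3 and 4, and 0.352% and 0.355% in WT 1 and 2. The 95% intervals of the 9 genes other than Hk2 spanned log2 fold changes from -0.29 to 0.11, so that for each of them a change of 1.5-fold in either direction lay outside the interval.

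**Figure D1:**
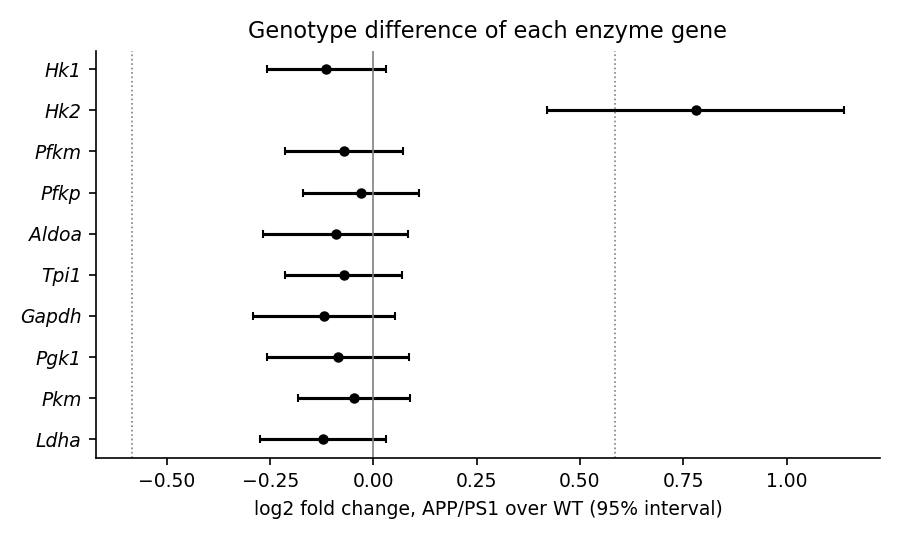
Log2 fold change (x axis, APP/PS1 over WT) of each of the 10 genes (y axis), with its 95% interval from edgeR as a bar; dotted lines mark a 1.5-fold change. The 9 points other than Hk2 sit between -0.12 and -0.03 with intervals that hold 0, and Hk2 sits at 0.78.

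Levels per length ranged over more than 2 orders of magnitude between the genes. Each transcript's counts were divided by its own length in kilobases and by the scaled library total as for CPM, then summed per gene. This level per kilobase sets genes side by side, but it depends on which transcripts of a gene the alignment placed reads on. Aldoa had the highest level as counted, 498 ± 33.7 (SD, n = 4 libraries), but with the counted genes similar to Gapdh added to it, Gapdh was above Aldoa in each of the 4 libraries (607 to 658 against 448 to 523). As counted it was followed by Gapdh (397 ± 27.5), Tpi1 (323 ± 8.03) and Pkm (306 ± 6.41), and after a gap by Pgk1 (156 ± 9.54) and Pfkp (104 ± 2.18). Ldha (84.4 ± 4.82) and Pfkm (79.2 ± 2.62) were neighbours whose ranges overlapped, although Ldha was above Pfkm within each of the 4 libraries. All other neighbours in this order were apart in their ranges, down to Hk1 (60.0 ± 2.91) and Hk2 (1.11 ± 0.352). Tpi1 had 37.1% of its counts on Tpi1-203, of 802 bases, and 36.2% on Tpi1-205, of 1607 bases. Whether Tpi1 would stay above Pkm with reads placed otherwise was not tested.

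**Figure D2:**
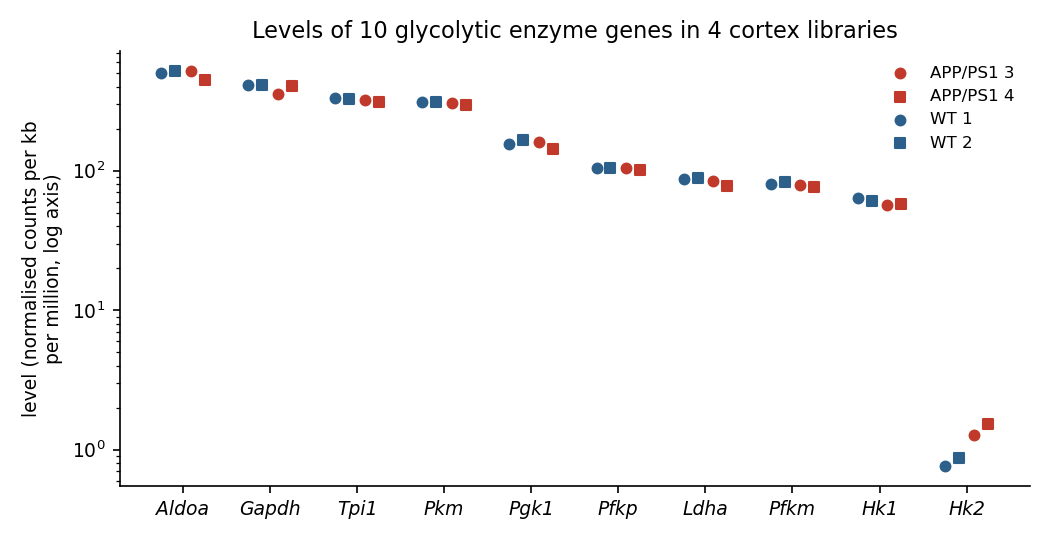
Level of each gene (y axis, log scale, CPM per kilobase) in each of the 4 libraries; circles and squares are single libraries, blue WT and red APP. The order from Aldoa to Hk2 held in both genotypes, and only at Hk2 are the red points visibly above the blue points.

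Hk2 differed most between the genotypes of the 10 genes, and Hk1 is its broadly expressed counterpart. Hk1 lies at chr10:62268855-62379908 and Hk2 at chr6:82725025-82774454 (GRCm38, minus strand for both). The 250 bases before one annotated start of each gene, from RefSeq on GRCm38.p6, are shown because Hk2 is a textbook target of hypoxia-inducible factors, whose sites hold the core ACGTG or GCGTG. Capitals mark these cores on either strand. In Hk1 the last pair overlap each other, and a palindrome CACGTG counts as 2 overlapping ACGTG cores. The Hk2 window is chr6:82774455-82774704 and lies directly before the only counted Hk2 transcript. The Hk1 window is chr10:62340422-62340671 and lies at the start of Hk1-202, which held 7.20% of the Hk1 counts.
Hk2 promoter: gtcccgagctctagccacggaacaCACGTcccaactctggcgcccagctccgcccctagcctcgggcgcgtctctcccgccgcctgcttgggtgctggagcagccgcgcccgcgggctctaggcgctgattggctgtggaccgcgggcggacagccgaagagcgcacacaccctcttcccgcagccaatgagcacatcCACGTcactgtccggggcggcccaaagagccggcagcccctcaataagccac
Hk1 promoter: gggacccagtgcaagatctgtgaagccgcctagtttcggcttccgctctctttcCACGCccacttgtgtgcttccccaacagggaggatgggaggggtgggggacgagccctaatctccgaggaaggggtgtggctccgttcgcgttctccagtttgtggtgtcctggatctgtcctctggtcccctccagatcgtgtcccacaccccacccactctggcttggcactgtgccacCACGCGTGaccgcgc
The Hk2 window held 2 ACGTG cores and 0 GCGTG cores, and the Hk1 window held 0 and 3. With the 50 bases after the start included, the Hk2 window still held 2 and 0, but the Hk1 window held 2 and 3. These windows then did not differ in ACGTG. Another annotated Hk1 window held 0 and 0. Neither Hk1 window matched the start of Hk1-201, which held 92.1% of the Hk1 counts. Over the windows of the 10 genes, 8 of 18 held ACGTG and 6 of 18 held GCGTG, beside 16.6% and 28.2% of 32851 RefSeq promoter windows of that length. Some windows of Aldoa and of Pfkm overlap and share a core, so the windows are not independent. At least 1 ACGTG window was found for 6 of the 10 genes, and the share over all genes was not computed. Among them was Ldha with 5 cores in a single window. That window, the ACGTG window of Pkm and the Pfkm window at chr15:98092339-98092588, which also held ACGTG, matched the start of no counted transcript. These matches describe letters only, as no binding was measured.

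Hk1 had levels per kilobase of 57.1 and 58.1 in APP 3 and 4, and of 63.5 and 61.1 in WT 1 and 2. Both APP values lay below both WT values, but the log2 fold change of -0.11 (SE 0.06) did not pass the test (adjusted p = 0.526). Hk2 had levels per kilobase of 1.28 and 1.52 in APP, and of 0.764 and 0.870 in WT. These rest on 205 and 259 counts in APP and 185 and 170 counts in WT, against 4209 to 33309 counts per library for the other members.

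Both APP values of Hk2 lay above both WT values. The log2 fold change was 0.78 (SE 0.16, 95% interval 0.42 to 1.14). The edgeR quasi-likelihood test gave an adjusted p of 0.0638 over all features, from 0.000926 before adjustment. The call depended on the test. The adjusted p was 0.039 with DESeq2, 0.0033 with edgeR's exact test, 0.0028 with its likelihood ratio test, 0.0409 with protein-coding transcripts only and 0.0466 with transcripts summed by the deposited gene symbol, and the log2 fold change was 0.78 in each. In the fit over 37539 single transcripts, Hk2-201, the only counted transcript of the gene, passed (adjusted p = 0.0232). Without WT 1 the log2 fold change was 0.69 (adjusted p = 0.304) and without WT 2 it was 0.88 (adjusted p = 0.134). Without APP 3 it was 0.90 (adjusted p = 0.00044) and without APP 4 it was 0.66 (adjusted p = 0.0188), where the single library left in a genotype is assumed to vary like the other genotype.

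The contrast between both hexokinases was measured within each library, where library scaling drops out. Per kilobase, Hk1 exceeded Hk2 by 44.6-fold in APP 3 and 38.3-fold in APP 4, and by 83.2-fold in WT 1 and 70.3-fold in WT 2. The excess of Hk1 was thus smaller in both APP libraries than in either WT library. The log2 ratio of Hk2 to Hk1 counts was -4.78 ± 0.15 (SD, n = 2) in APP and -5.67 ± 0.17 in WT, a difference of 0.89. An exact two-sided permutation test gave p = 0.333, the smallest value that 2 against 2 libraries allow. The 6 ratios that were computed had Benjamini-Hochberg adjusted values of 0.40 or more.

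Other hexokinase genes had low levels. Hk3, the hexokinase of myeloid cells, had 27 and 59 counts in APP and 27 and 23 in WT (log2 fold change 1.17, SE 0.40, adjusted p = 0.267). Both APP levels (0.931 and 1.90 CPM) lay above both WT levels (0.614 and 0.649 CPM), but APP 3 and APP 4 differed more from each other than the genotype means (1.42 and 0.632 CPM) did. Hkdc1, a hexokinase-like gene, had 227 and 213 counts in APP and 415 and 304 in WT (log2 fold change -0.30, adjusted p = 0.438).

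Microglia markers moved with Hk2. All 20 listed markers had a positive log2 fold change, 13 of them passed the adjusted p of 0.05 and the 1.5-fold cut-off, none was at 0, and the median was 0.93. Cx3cr1, Csf1r and C1qa, a chemokine receptor, a growth factor receptor and a complement component of microglia, had log2 fold changes of 0.72 (adjusted p = 0.00646), 0.69 (adjusted p = 0.0174) and 1.08 (adjusted p = 0.00286). Trem2 and its adaptor Tyrobp had 1.81 and 2.08. Aif1 (1.02, adjusted p = 0.0558), Itgam (0.59, adjusted p = 0.0942) and P2ry12 (0.52, adjusted p = 0.0541) did not pass.

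The summed level of the 20 markers was 665 and 791 CPM in APP 3 and 4, and 382 and 391 in WT 1 and 2. Hk2 was also set against these markers within each library. The log2 ratio of Hk2 to the summed markers was -6.56 in APP 3, -6.56 in APP 4, -6.50 in WT 1 and -6.35 in WT 2, a genotype difference of -0.13 (exact permutation p = 0.333), so that relative to the markers Hk2 was lower in both APP libraries. In bulk tissue, more cells of a type and more RNA per cell cannot be told apart, and these counts do not show which cells held Hk2. The part of the markers in the Hk2 difference was not tested.

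**Figure D3:**
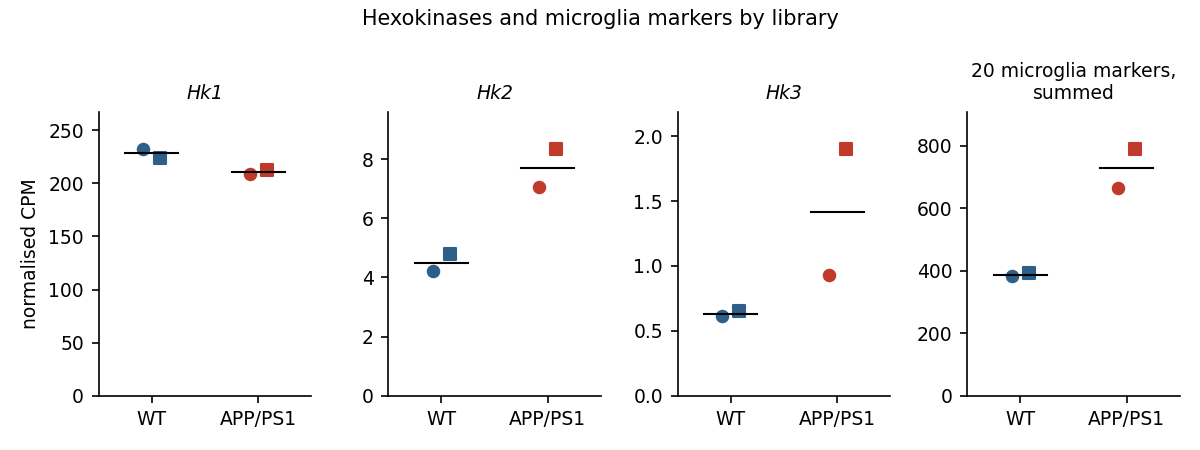
Normalised CPM (y axis, from 0) of Hk1, Hk2, Hk3 and the sum of 20 microglia markers in each library; circles and squares are single libraries (circles WT 1 and APP 3, squares WT 2 and APP 4) and lines are means of 2. Hk1 is slightly lower in APP, while Hk2 and the marker sum are higher in both APP libraries, from means of 4.50 to 7.71 CPM for Hk2.

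Across all features of at least 1 CPM, the 3 whose centred log2 levels over the 4 libraries lay closest to those of Hk2 were Lair1 (Euclidean distance 0.032), Tnfrsf1b (0.059) and Pik3cg (0.074). The pattern of Hk1 was that of a gene with almost no genotype difference. Of 14666 features compared, 6364 lay within a distance of 0.2 of Hk1, with Tlk1, Lrp8 and Uba6 closest, but only 52 within 0.2 of Hk2.

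Phosphofructokinase, the committing step, was represented by the muscle form Pfkm and the platelet form Pfkp. Pfkp had levels per kilobase of 105 and 100 in APP and 104 and 105 in WT, which overlapped, while its summed counts (278 and 272 CPM in APP, 279 and 282 CPM in WT) did not. Its log2 fold change of -0.03 (SE 0.06, adjusted p = 0.910) was the nearest to 0 of the 10. Pfkm had levels of 78.3 and 76.1 in APP and 79.9 and 82.3 in WT (log2 fold change -0.07, adjusted p = 0.731). The liver form Pfkl, outside the 10, had a log2 fold change of -0.01 (adjusted p = 0.984). The log2 ratios of Pfkp and Pfkl to Pfkm differed between genotypes by 0.04 and 0.06 (exact permutation p = 0.333 for each).

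Aldoa, the main aldolase of muscle and neurons, had levels per kilobase of 515 and 448 in APP and 504 and 523 in WT. APP 3 lay between the WT values and APP 4 below them, so that the log2 fold change of -0.09 (adjusted p = 0.713) rested on APP 4. Without APP 4 it was 0.0072 (adjusted p = 0.967) and without APP 3 it was -0.19 (adjusted p = 0.0065). Aldoc, an aldolase enriched in astrocytes, had 454 and 465 CPM in APP and 428 and 412 in WT, both APP values above both WT values, and a log2 fold change of 0.13 (adjusted p = 0.465). The log2 ratio of Aldoc to Aldoa counts was -0.66 ± 0.17 (SD, n = 2) in APP and -0.88 ± 0.08 in WT (exact permutation p = 0.333). Gfap, the filament protein of reactive astrocytes, had a log2 fold change of 2.82 and was among the 2 of 10 astrocyte markers that passed, and the median of that list was 0.19.

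Tpi1, which equilibrates the triose phosphates, had levels per kilobase of 321 and 313 in APP and 332 and 325 in WT, and all values lay within a narrow band (log2 fold change -0.07, adjusted p = 0.719). Pgk1, the first ATP-yielding enzyme, had 160 and 144 in APP and 155 and 166 in WT, with overlapping genotypes (log2 fold change -0.09, adjusted p = 0.733). Its log2 fold change was -0.0070 without APP 4 and -0.16 without APP 3.

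Gapdh is both a glycolytic enzyme and a reference gene of the study's quantitative PCR. Its levels per kilobase were 356 and 405 in APP and 414 and 412 in WT, so that APP 3 was the lowest and APP 4 was close to the WT values. The log2 fold change was -0.12 (SE 0.08, adjusted p = 0.593), and it was -0.21 without APP 4 (adjusted p = 0.0060) and -0.03 without APP 3 (adjusted p = 0.818).

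Gapdh differed from the other 9 genes in how much of its sequence is shared with other counted genes. Of all 50-base words of its main transcript, 87.7% also occurred in other counted genes, against 7.05% for Ldha and 0% for the main transcripts of the other 8. At least 90% identity over 200 bases was found with 21 other counted genes, most of them processed pseudogenes. Their counts were summed over all transcripts of each gene, also transcripts not shown to resemble Gapdh. Peli2 thus added 365 counts in APP 3, of which 13 were on Peli2-202, which holds a Gapdh primer site. The summed counts of the 21 genes were 74.7% of the Gapdh count in APP 3 and 59.9% in APP 4. They were 60.8% in WT 1 and 61.6% in WT 2. Reads may be divided differently between these copies in another alignment, so the Gapdh level itself is uncertain, and with the copies added the log2 fold change was -0.07 (adjusted p = 0.716).

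The copies with most counts were Gm3222, with 4557 and 5157 counts in APP and 7882 and 6144 in WT, and Gm11960, with 2686 and 2342 in APP and 3538 and 3299 in WT. Their log2 fold changes were -0.12 and -0.05. Gm13394, a processed pseudogene that is 99.9% identical to Gapdh over 1000 aligned bases, had 761 counts in APP 3 but 8 in APP 4, 10 in WT 1 and 3 in WT 2. It stood apart in 1 library and did not pass the test (adjusted p = 0.166).

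**Figure D4:**
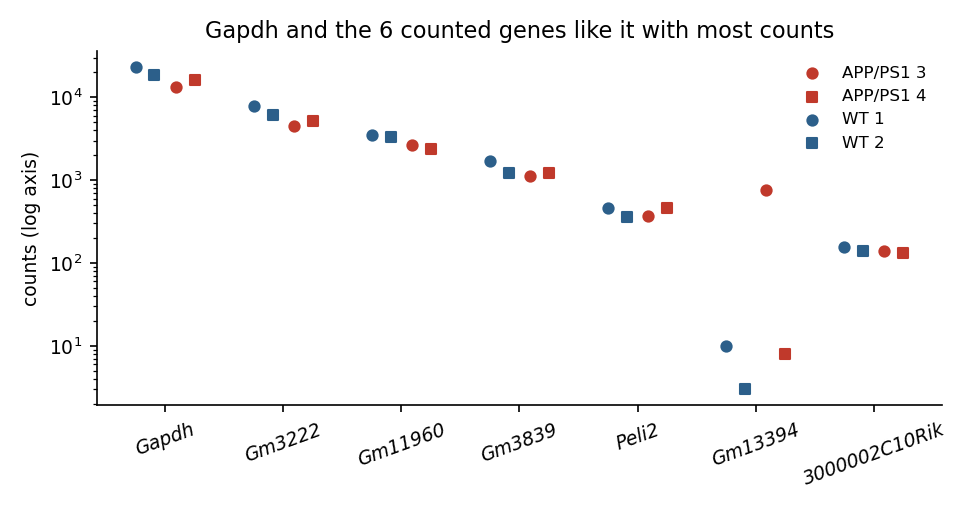
Counts (y axis, log scale) of Gapdh and of the 6 similar counted genes with most counts in each library; circles and squares are single libraries, blue WT and red APP. Gm3222 follows Gapdh at a lower level in all 4 libraries, and Gm13394 is high only in APP 3, with 761 counts.

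The study's mouse Gapdh primers, shown because they amplify the reference product, are both 20 bases long.
Gapdh forward primer: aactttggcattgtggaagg
Gapdh reverse primer: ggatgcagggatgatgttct
Both matched without mismatch in 3 Gapdh transcripts and in 8 other counted genes, each time with a product of 132 bases. The products in Gapdh-201 and in the counted pseudogenes Gm3222 and Gm13394 are given, with capitals where a copy differs from Gapdh-201.
Gapdh-201 product: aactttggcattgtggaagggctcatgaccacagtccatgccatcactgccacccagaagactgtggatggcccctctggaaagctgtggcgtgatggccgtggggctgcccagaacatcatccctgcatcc
Gm3222-201 product: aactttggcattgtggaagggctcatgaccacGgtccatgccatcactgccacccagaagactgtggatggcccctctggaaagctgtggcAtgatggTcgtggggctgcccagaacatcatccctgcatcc
Gm13394-201 product: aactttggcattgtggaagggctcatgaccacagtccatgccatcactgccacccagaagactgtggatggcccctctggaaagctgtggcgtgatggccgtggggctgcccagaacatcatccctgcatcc
Gm3222 differed at 3 of 132 positions, and the Gm13394 product was identical to that of Gapdh. These matches describe sequence only, and no PCR values were analysed here.

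Pkm, the pyruvate kinase of muscle and brain, makes the final ATP. Its levels per kilobase were 304 and 297 in APP and 310 and 312 in WT, both APP values below both WT values by a small margin (log2 fold change -0.05, SE 0.06, adjusted p = 0.833). The gene has a pair of mutually exclusive exons, which give the constitutively active M1 form, usual in neurons, and the regulated M2 form. In the counted transcripts these are exon 9 of 11, with 167 bases each. Pkm-202 carries the upstream exon, that of M1, at chr9:59675029-59675195. Pkm-201 carries the downstream exon, that of M2, at chr9:59675568-59675734 (GRCm38, plus strand). Capitals mark the 64 positions at which the exons differ when laid side by side without gaps.
Pkm-202 exon: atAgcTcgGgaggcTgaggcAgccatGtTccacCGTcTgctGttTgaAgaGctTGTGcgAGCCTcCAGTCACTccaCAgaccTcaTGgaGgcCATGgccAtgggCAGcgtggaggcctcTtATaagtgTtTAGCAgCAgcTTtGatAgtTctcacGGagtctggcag
Pkm-201 exon: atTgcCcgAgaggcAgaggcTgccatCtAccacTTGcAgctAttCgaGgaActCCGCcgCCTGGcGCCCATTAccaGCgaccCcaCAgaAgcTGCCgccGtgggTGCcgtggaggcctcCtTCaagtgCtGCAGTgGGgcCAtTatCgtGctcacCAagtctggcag
They share 61.7% of positions. Pkm-202 held 6.51% and 6.63% of the Pkm counts in APP 3 and 4, and 6.41% and 6.87% in WT 1 and 2, so both APP shares lay between the WT shares. These shares are not the shares of M1 and M2. Only 10.2% of the 50-base words of Pkm-202 and 24.97% of those of Pkm-201 are absent from the other counted transcript of Pkm. The counts per transcript rest on how the alignment placed the remaining sequence.

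Ldha, the lactate dehydrogenase subunit that prevails in muscle and astrocytes, had levels per kilobase of 84.0 and 77.7 in APP and 87.3 and 88.5 in WT. Its log2 fold change of -0.12 (SE 0.07, adjusted p = 0.525) was the lowest of the 10, and it was -0.18 without APP 3 and -0.06 without APP 4. Ldhb, the subunit that prevails in neurons and heart, had a log2 fold change of -0.14 (adjusted p = 0.436). The log2 ratio of Ldhb to Ldha counts was 0.35 ± 0.15 (SD, n = 2) in APP and 0.37 ± 0.01 in WT, a difference of -0.02 (exact permutation p = 1.0).

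Most of the 10 genes were counted through a single dominant transcript. The table held 42 of their transcripts, of which 23 are annotated as protein-coding and 18 as retained introns. The main transcript held 100% of the counts of Hk2 and Pfkm, 92.1% for Hk1 (Hk1-201), 71.5% for Pfkp (Pfkp-201), 98.0% for Aldoa, 92.4% for Gapdh, 99.8% for Pgk1, 93.4% for Pkm and 94.8% for Ldha. Tpi1 was the exception, with 37.1% on Tpi1-203 and 36.2% on Tpi1-205. As for Pkm, these shares rest on how the alignment placed shared sequence. Found in no other counted transcript of the same gene were 0% of the 50-base words of Gapdh-201, 3.54% of Pfkp-201, 5.18% of Hk1-201 and 5.81% of Aldoa-201.

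Further transcripts with at least 5% of a gene's counts were Hk1-202 (7.20%), the retained-intron transcripts Pfkp-212 (14.3%) and Pfkp-202 (5.31%), the retained-intron transcripts Tpi1-204 (14.9%) and Tpi1-201 (7.08%), Gapdh-203 (6.80%), Pkm-202 (6.60%) and Ldha-202 (5.02%). Of the 42 transcripts, 1 passed an adjusted p of 0.05 over all transcripts, Hk2-201, where 1.06% of the 37539 transcripts did. The lowest adjusted p among the other 41 was 0.407, for Tpi1-205.

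Of the other glycolytic isoenzymes and steps, 17 of 21 listed genes were counted. None of them (0) passed an adjusted p of 0.05 with edgeR's quasi-likelihood, exact or likelihood ratio test or with DESeq2. In the first of these 1.14% of all features passed. In that test 3 of the 17 had an unadjusted p under 0.05, beside 12.1% of all features, the share to set beside such counts in the lists below. The median log2 fold change of the 17 genes was -0.04. Gpi1, the isomerase after hexokinase, had -0.09 (adjusted p = 0.755) with overlapping genotypes, Pgam1, the mutase before enolase, had -0.15 (adjusted p = 0.441), and Eno2, the neuronal enolase, had -0.04 (adjusted p = 0.884).

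Eno1, the general enolase, had 3400 and 2682 counts in APP and 2428 and 3210 in WT, with overlapping genotypes after scaling (log2 fold change 0.49, adjusted p = 0.406). Eno1b, a counted copy that is 99.5% identical over 1652 bases, had -0.08. With both summed, the log2 fold change was 0.07 (adjusted p = 0.801). Eno1b holds the larger part of that sum, and how reads were split between both was not tested.

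Of 15 genes of glucose, lactate and pyruvate transport, 0 passed with any of these tests, 2 had an unadjusted p under 0.05 in the first, and the median was -0.08. Slc2a1, the glucose transporter of the blood-brain barrier and astrocytes, had 546 and 553 counts in APP and 1077 and 693 in WT (log2 fold change -0.27, adjusted p = 0.395). Slc2a6 had -0.22 (adjusted p = 0.516) and Slc2a12 had 0.60 (adjusted p = 0.240). Slc2a3, the neuronal glucose transporter, had -0.11 (adjusted p = 0.564). Of 10 endothelial markers 0 passed with any of these tests and 0 had an unadjusted p under 0.05, with a median of -0.08. Of 10 neuron markers 0 passed in edgeR and 1 in DESeq2, 1 had an unadjusted p under 0.05, and the median was -0.07.

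Among 23 regulators, 1 passed the adjusted p of 0.05 and 0 passed the 1.5-fold cut-off as well. Pdp1, a phosphatase that activates pyruvate dehydrogenase, had 225 and 203 CPM in APP and 282 and 308 in WT. Both APP values lay below both WT values, and the log2 fold change of -0.46 (SE 0.08) passed (adjusted p = 0.0316), though not without WT 1 (adjusted p = 0.0598) or without WT 2 (adjusted p = 0.307). Pdk4, a kinase that inhibits pyruvate dehydrogenase, had 13.9 and 13.7 CPM in APP and 8.56 and 9.62 in WT. Its log2 fold change of 0.60 missed the threshold (adjusted p = 0.0527), and it passed with DESeq2 and with both other tests of edgeR. Of the 23 regulators, 6 had an unadjusted p under 0.05, beside 12.1% of all features. Egln3, an oxygen-sensing prolyl hydroxylase, had -0.32 (adjusted p = 0.516).

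The 5 subunit genes of the pyruvate dehydrogenase complex itself had log2 fold changes between -0.07 and -0.003. With any of the tests 0 passed, and 0 had an unadjusted p under 0.05. Pdhb, Pdhx and Dlat had the largest of these, at -0.07, -0.07 and -0.06.

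The 8 genes of the pentose phosphate pathway, which branches off after hexokinase and supplies NADPH, had a median of 0.07. With any of the tests 0 passed, and 1 had an unadjusted p under 0.05. The largest values were those of Tkt (0.21, adjusted p = 0.325), H6pd (-0.18, adjusted p = 0.698) and Taldo1 (0.17, adjusted p = 0.467). Tkt had 86.3 and 74.5 CPM in APP and 68.7 and 69.8 in WT.

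Of gluconeogenesis and glycogen, 14 of 16 listed genes were counted, with a median of 0.06. In edgeR's quasi-likelihood test and DESeq2 0 passed, 1 (Pygl) passed in the exact and likelihood ratio tests, and 2 had an unadjusted p under 0.05. Pygl, the liver form of glycogen phosphorylase, had 106 and 156 counts in APP and 109 and 79 in WT (log2 fold change 0.88, SE 0.21, adjusted p = 0.110), both APP levels above both WT levels. Pgm2 had 0.34 (adjusted p = 0.409) and G6pc3 had -0.21 (adjusted p = 0.567).

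**Figure D5:**
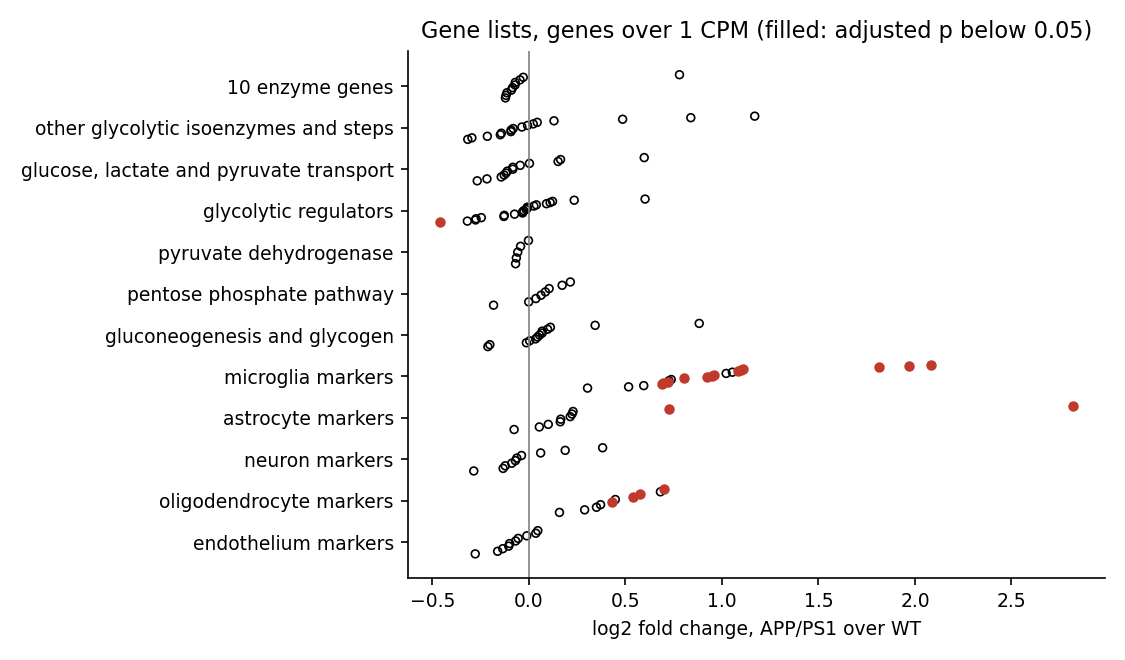
Log2 fold change (x axis, APP over WT) of each listed gene above 1 CPM, grouped by list (y axis; height within a list only spreads the points); filled red points have an adjusted p below 0.05. The metabolic lists centre near 0 with Pdp1 as the only filled point, whereas 13 of the 20 microglia markers are filled.

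Oligodendrocyte markers, given because other cell types may also contribute to a cortex level, had a median log2 fold change of 0.44, and 4 of 10 had an adjusted p under 0.05. Their summed level was 1848 and 1617 CPM in APP and 1197 and 1328 in WT. The part of these markers in the enzyme values was not tested.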

How the data were processed

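From cortex of 2 APP and 2 WT mice, the authors made rRNA-depleted libraries with paired 100-base reads, removed rRNA pairs, aligned with FANSe2 to Ensembl mouse transcripts (up to 7 mismatches) and kept transcripts with at least 10 reads. The table deposited by the authors holds raw counts per transcript. The submitters' processing notes name hg19, which does not match mouse, and it was not used. A further 4 columns per library, of log2 CPM, were not used.

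The deposited GeneSymbol column names Hk2 exactly but gives Pkm, Ldha and Tpi1 other names, so transcripts were summed by Ensembl identifier through GENCODE M21 (36858 of 37539 matched, 98.2%; the other 681 stayed single features) instead of by symbol as first designed. Features were tested in edgeR 4.0.16 (quasi-likelihood, TMM, Benjamini-Hochberg over 18386 features, R 4.3.3), calling an adjusted p under 0.05 with a fold change of at least 1.5, and the script was tested on simulated data. Alternatives used DESeq2 1.42.0, other edgeR tests, scalings and filters. Levels per kilobase divided each transcript's counts by its length. Similar genes were found with blastn 2.17.0, and sequences came from GENCODE, RefSeq and the study's primers.

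Named were the 10 enzymes, 8 set isoenzymes, 8 microglia markers, and in each pathway list every gene with an adjusted p under 0.05 and the 3 largest changes above 1 CPM, with main and larger transcripts, nearest patterns and similar genes. Hkdc1, Eno1b, Slc2a3, Gfap, App and Drd2 were added after their values were seen, and some genes that the rule names are not reported here. The members and lists were chosen with earlier results of these data known. Totals of 28525117 to 43881196 counts leave Hk2, at 170 to 259 counts, the least precise member.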

Additional observations from a re-analysis of the deposited data

How the results depend on the processing

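The count of features called was 354 with edgeR's exact test and 391 with its likelihood ratio test, against 162, and leaving out 1 library moved it between 134 and 601 (601 without APP 3, 478 without APP 4). Hk2 was called, so that 1 enzyme gene passed, with DESeq2, the exact test, the likelihood ratio test, deposited symbols and protein-coding transcripts only, and as a single transcript, each with a log2 fold change of 0.78. It was not called with library totals, DESeq2 size factors in edgeR, or a minimum of 10 counts per library (adjusted p up to 0.0694). Leaving out 1 library gave Hk2 values from 0.66 to 0.90 and 0 to 1 enzyme genes called (1 without APP 3 and without APP 4), and a difference of Hk2 to Hk1 of 0.77 to 1.01. Of the pathway genes outside the 10, against 1 with an adjusted p under 0.05, there were 2 with DESeq2, library totals, deposited symbols or protein-coding transcripts, 3 with the exact and the likelihood ratio test, and 0 to 9 without 1 library (8 without APP 3, 9 without APP 4, 0 without WT 1). Enzyme transcripts with an adjusted p under 0.05 were 0 to 3 without 1 library (2 without APP 3, 3 without APP 4, 0 without WT 1), against 1. Aldoa, at -0.09, was -0.19 without APP 3 and 0.0072 without APP 4, and Pgk1 then was -0.0070. The other 9 enzyme genes kept their direction in all alternatives that gave them a value. Deposited symbols gave none for Tpi1, Pkm and Ldha. The single-transcript and summed-enolase settings, the plain totals for overlaps and the Gapdh level with its copies were chosen after seeing the data. Sums by deposited symbol were the first design, and sums by Ensembl identifier replaced them as the main fit. Hk2 was called with the former and not with the latter. The cause of these changes was not tested. No paired analysis was made, since the labels name no pairs of animals. The APP libraries are numbered 3 and 4 in the table, and the labels tie neither number to a sample. With 2 animals a genotype, depth limits Hk2 and Hk3 more than the other genes.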

Other observations

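A transcript of another gene, Gm47854, carries the symbol of Gapdh in the deposited table. It had 655 and 280 counts in APP 3 and 4 and 426 and 322 in WT 1 and 2 (log2 fold change 0.75, adjusted p = 0.422 in edgeR), so APP 3 was the highest of the 4 libraries both here and for the Gapdh pseudogene Gm13394, while Gapdh itself was lowest there.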
